A study of Mus musculus with 31 samples.

Results

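The colony-stimulating factors and their receptors were followed in the masseter muscle (MM) of mice after injection of complete Freund's adjuvant (CFA), a suspension of killed mycobacteria in oil that inflames tissue, or of collagenase type 2 (Col), an enzyme preparation that digests collagen. The genes were chosen by name and number 8 of the 22609 gene symbols counted: the ligands Csf1, Il34, Csf2 and Csf3 and the receptor genes Csf1r, Csf2ra, Csf2rb and Csf3r. One RNA-seq library was made from the injected MM of each of 31 male C57BL/6J mice, adults of 2 to 4 months according to the methods of the study. The CFA experiment had 9 mice: 3 were taken at 1d and 3 at 5d post-CFA, and 3 had been given vehicle. The Col experiment had 3 mice given vehicle (Contr), 4 mice in each of the Col (0.2U) groups labelled 1C and RPC, and after Col (10U) 4 mice at 2d, 3 at 6d and 4 at 12d. Vehicle was PBS, and the groups carried no transgene. The labels give no day for 1C, RPC or the vehicle-treated mice, and where they read 2d and 12d the text of the study gives 1d and 14d, so that the days printed here are those of the labels.

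Csf1 (M-CSF) and Il34 both bind Csf1r, a receptor tyrosine kinase of monocytes and macrophages on which these cells depend for survival and growth. Csf2 (GM-CSF) binds a receptor made of the alpha chain encoded by Csf2ra and the beta chain encoded by Csf2rb, a chain that the receptors for Il3 and Il5 also use. Csf3 (G-CSF) binds Csf3r and drives the production of neutrophils and their release from bone marrow. In injured muscle neutrophils enter first, and monocytes follow and become macrophages that clear debris and take part in repair. Each library was made from the whole muscle, so fewer cells of a type and less RNA per cell cannot be told apart in any value given here.

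In the GENCODE vM1 annotation of the mm9 build, Csf1 lies at chr3:107543966-107563387 on the minus strand, Il34 at chr8:113265729-113329824 on the minus strand, Csf2 at chr11:54060773-54063169 on the minus strand and Csf3 at chr11:98562577-98564943 on the plus strand. The receptor genes lie at chr18:61265226-61291803 (Csf1r, plus strand), chr19:61300305-61304321 (Csf2ra, minus strand), chr15:78156420-78184277 (Csf2rb, plus strand) and chr4:125701794-125722219 (Csf3r, plus strand). Values are read counts over all exons of a gene, given as CPM, counts scaled to the size of each library with TMM factors. RPKM also divides by exonic length. Per length, Csf1r had the highest median of the 8 genes over the 31 libraries, 9.13 RPKM, followed by Csf1 at 7.21, Il34 at 5.11, Csf2ra at 3.83, Csf2rb at 1.99 and Csf3r at 1.16. The medians of Csf2 and Csf3 were 0.

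Between 14843778 and 29076671 reads were counted on genes per library (median 20834472), so that 3 reads, the number taken as the floor of detection, came to between 0.103 and 0.229 CPM. The summed CPM of 8 skeletal muscle markers ranged from 30580 to 187100, and that of 6 salivary gland markers from 10.5 to 131200, with 63.4 to 48650 in the Col vehicle group and 10.5 to 31.4 at 6d post-Col (10U). At 5d post-CFA the salivary sum was 48710 to 65570, above the 68.3 to 6294 of the CFA vehicle group in every mouse. The part of this difference in the values at 5d was not tested. Mouse 3 had the highest summed CPM of bone marrow granulocyte precursor markers in each vehicle group. The sum was 595 in the CFA experiment against 2.14 and 4.33 in the others, and 983 in the Col experiment against 9.38 and 198. Averaged as log2 levels, these markers stood at 3.70, -0.56 and 6.12 in Col vehicle mice 1, 2 and 3. By that measure mouse 2, not mouse 3, lay furthest from the rest of the Col vehicle group. Mouse 4 at 2d post-Col (10U) was the nearest of its group to vehicle in both skeletal muscle markers (61930 CPM, against 100900 to 157700 in vehicle-treated mice) and macrophage markers (643 CPM, against 148 to 548), and mouse 4 at 12d had a summed macrophage marker level of 1206 CPM against 152 to 325 in the other 3. Mouse 3 of each vehicle group, mouse 4 at 2d and mouse 4 at 12d are the 4 libraries followed below. They were picked by marker levels in these same data, so a call gained without one of them is no independent support. Where a call or direction of the 8 genes rests on one of these 4 libraries, the value or call without it is given too. For other genes named below no such value is given. Without Col vehicle mouse 3, calls among the 8 genes rose from 1 to 4 at 6d and from 0 to 1 at 2d post-Col (10U). Of all genes that fit called 21.5% higher and 20% lower at 6d, and 2.86% and 1.4% at 2d. Without Col vehicle mouse 1 or mouse 2 instead, calls among the 8 genes stayed at 1 at 6d and 0 at 2d. With 1 library left out, calls over all genes against vehicle fell as low as 12 at 2d and 809 at 6d post-Col (10U). Reads left out for overlapping more than 1 gene made up 0.331% to 0.399% of the reads in the 11 Col (10U) libraries and 0.0757% to 0.138% in the other 20, their vehicle group included. Of genes with at least 50% of their exonic bases under an exon of the opposite strand, 24.1% (2d), 27.4% (6d) and 22% (12d after 10U) had a log2 fold change below -1 against vehicle, compared with 10.1%, 12.1% and 4.94% of genes with no such bases. Exons of the opposite strand cover 16.7% of Csf1r (Hmgxb3), 12% of Csf2 (Gm12223) and 5% of Il34 (Gm15894 and Gm15895), and none of the other 5 genes, and the part of this counting difference in their values was not tested.

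The ligand Csf1 was highest at 2d post-Col (10U). Its level was 118, 96.6, 127 and 37.7 CPM in the 4 mice, against 36.7, 25.0 and 36.7 CPM in vehicle-treated mice. All 4 mice exceeded every vehicle-treated mouse, but mouse 4 did so by little. The log2 fold change was 1.49 (SE 0.41), with an adjusted p of 0.0669 in the edgeR quasi-likelihood test over all genes, which does not pass the threshold of 0.05. Without mouse 4 it was 1.75 with an adjusted p of 0.00195. With another library left out instead, the adjusted p rose to as much as 0.214. At 6d post-Col (10U) Csf1 stood at 37.1, 41.0 and 38.9 CPM, above all vehicle-treated mice but by a log2 fold change of only 0.22 (SE 0.20, adjusted p = 0.421). At 12d it was 22.9, 27.4, 28.1 and 37.0 CPM, a range that overlapped vehicle.

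After CFA, Csf1 was 64.2, 49.6 and 66.7 CPM at 1d and 37.9, 43.5 and 53.3 CPM at 5d, against 29.6, 48.6 and 30.7 CPM in the vehicle-treated mice of that experiment. The mice at 1d post-CFA did not overlap their vehicle group, but mouse 2 at 1d and vehicle mouse 2 nearly met. The log2 fold change at 1d was 0.73 (SE 0.25, adjusted p = 0.924), and at 5d 0.36. In the Col (0.2U) groups Csf1 stayed within 28.1 to 46.0 CPM (1C) and 28.2 to 47.0 CPM (RPC), overlapping vehicle in both. When the 9 group means were ordered, Csf1 ran from 94.99 ± 40.3 CPM (SD, n = 4) at 2d post-Col (10U) and 60.2 ± 9.23 CPM (n = 3) at 1d post-CFA down to 28.9 ± 5.91 CPM (n = 4) at 12d post-Col (10U). Of the 8 pairs of neighbours in that order, only 1d and 5d post-CFA (44.9 ± 7.80 CPM, n = 3) were apart by more than the larger of their SDs.

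Il34, the other ligand of Csf1r, was lowest where Csf1 was highest. At 2d post-Col (10U) Il34 was 2.37, 3.59, 2.62 and 8.63 CPM, against 10.7, 13.9 and 8.91 CPM in vehicle-treated mice. All 4 mice were below every vehicle-treated mouse, and the highest was again mouse 4. The log2 fold change was -1.40 (SE 0.47, adjusted p = 0.0924), and -2.0 without mouse 4 (adjusted p = 0.00263). At 6d the mice, at 7.05, 4.69 and 7.09 CPM, were again all below vehicle, with a log2 fold change of -0.84 (SE 0.27, adjusted p = 0.0503), and without vehicle mouse 3 it was called at -0.99 (adjusted p = 0.0277). The highest adjusted p of Il34 with 1 library left out was 0.242 at 2d and 0.178 at 6d. By 12d, at 8.47, 10.6, 8.73 and 9.05 CPM, Il34 overlapped vehicle with a log2 fold change of -0.24.

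In the CFA experiment Il34 was 7.73, 10.3 and 6.74 CPM at 1d, 13.9, 12.6 and 11.3 CPM at 5d and 9.85, 13.8 and 10.9 CPM in vehicle-treated mice, and both times overlapped vehicle. Its log2 fold change was -0.48 at 1d and 0.17 at 5d post-CFA, and -0.49 at 1d with the replicate number as a block (adjusted p = 0.665). In the Col (0.2U) groups Il34 ranged from 9.82 to 14.0 CPM (1C) and from 10.3 to 20.6 CPM (RPC), which also overlapped vehicle. The log2 fold change in 1C was 0.05, and -0.09 without vehicle mouse 3. From 14.8 ± 4.25 CPM (SD, n = 4) in RPC to 4.30 ± 2.93 CPM (n = 4) at 2d post-Col (10U), only 1d post-CFA (8.25 ± 1.82 CPM, n = 3) and 6d post-Col (10U) (6.28 ± 1.37 CPM, n = 3) were neighbours apart by more than the larger SD. The test of whether the change at 6d post-Col (10U) differed from that at 5d post-CFA gave a log2 difference of -1.03 for Il34 (SE 0.32, adjusted p = 0.063). Without mouse 3 of the Col vehicle group this difference was -1.16 and passed (adjusted p = 0.0364).

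**Figure D1:**
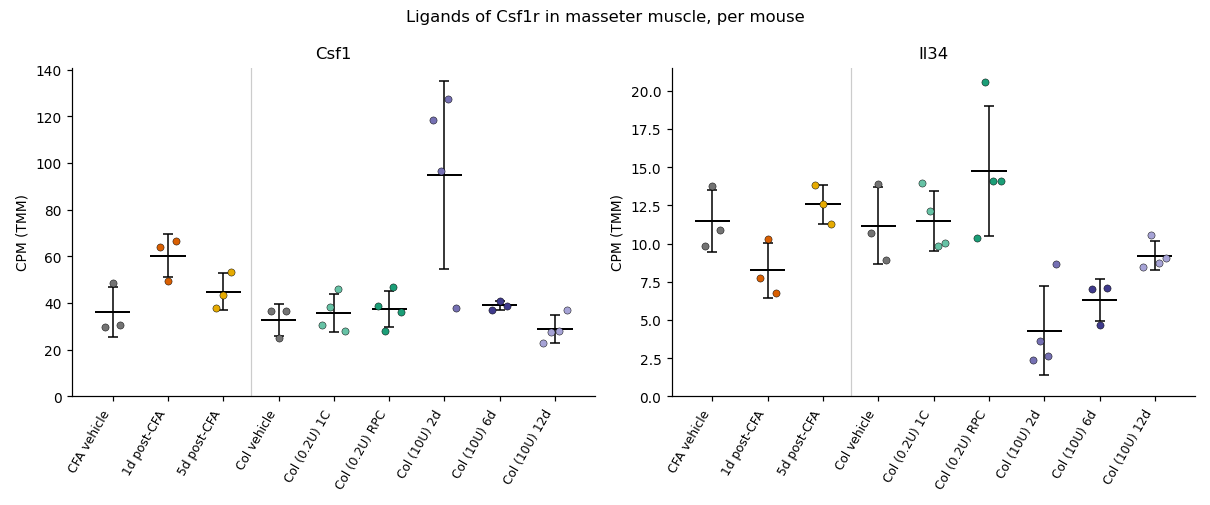
Levels of Csf1 and Il34 in CPM (vertical axes, linear) for each mouse (points) in the 9 groups, with CFA groups left of the vertical line, and with the group mean (horizontal bar) and SD (error bar). At 2d post-Col (10U) 3 of 4 mice lie between 96.6 and 127 CPM for Csf1 and between 2.37 and 3.59 CPM for Il34, while mouse 4 lies at 37.7 and 8.63 CPM.

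The balance of both ligands was followed as the ratio of Csf1 to Il34 in RPKM within each library. It ranged from 1.63 to 18.6 (median 14.0) at 2d post-Col (10U), 1.959 to 3.25 at 6d and 0.964 to 1.52 at 12d, against 0.670 to 1.53 in vehicle-treated mice. The ratio at 2d and 6d was above vehicle in every mouse, and at 12d it overlapped vehicle. At 1d post-CFA it was 1.80 to 3.69, above the 1.05 to 1.31 of vehicle in all 3 mice. Over the 31 libraries the log2 CPM of Csf1 and Il34 had a Pearson r of -0.73, and of -0.71 after group means were removed, a description in which all points share the library's total.

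The promoter of Csf1 is printed because this ligand led the group at 2d. It is the RefSeq sequence of the 250 bases before the start (GRCm38.p6, chr3:107760470-107760719, minus strand), a build other than that of the counts. Capitals mark the only match, on the opposite strand, to GGG followed by NNTNN and CC, a core of the site bound by NF-kB, and the match begins 154 bases before the start. On either strand 15.9% of 32851 promoters of this length hold such a match, so it sets Csf1 little apart.
Csf1: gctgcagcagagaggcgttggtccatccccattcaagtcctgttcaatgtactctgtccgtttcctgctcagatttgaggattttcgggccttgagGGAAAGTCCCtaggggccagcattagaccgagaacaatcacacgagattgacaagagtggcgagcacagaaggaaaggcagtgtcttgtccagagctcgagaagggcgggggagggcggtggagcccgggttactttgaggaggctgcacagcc

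Csf3, the ligand that mobilises neutrophils, passed 10 reads in 2 libraries, both at 1d post-CFA. Those of mice 1 and 3 held 62 and 31 reads (2.54 and 1.38 CPM), and that of mouse 2 held 1 read. No read was counted in the 3 vehicle-treated mice of that experiment or at 5d post-CFA. Set against the floor of 3 reads per vehicle library, the mean of 1.32 ± 1.25 CPM (SD, n = 3) at 1d post-CFA was at least 10.8-fold higher, and at least 5.82-fold higher without mouse 1 and 15.96-fold higher without mouse 2, whose single read lies under the floor. The gene did not reach 10 counts in 3 libraries of the comparison and was not tested. Over all 31 libraries it had 104 reads, with 23 libraries at 0.

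Csf2 had 20 reads in all, with 21 libraries at 0. At 2d post-Col (10U) 3, 2, 6 and 2 reads were counted and at 6d 1, 2 and 1, while the 3 vehicle-treated mice and the 4 mice at 12d had none. Every library at 2d and 6d thus held at least 1 read, but only 1 library exceeded the floor of 3 reads, so no fold is given. How far Csf2 differed between groups cannot be told from so few reads, and the Col (10U) libraries also differed from their vehicle group in the reads left out, as given above. The floor covers counting error only, since reads copied by PCR are not separate molecules.

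**Figure D2:**
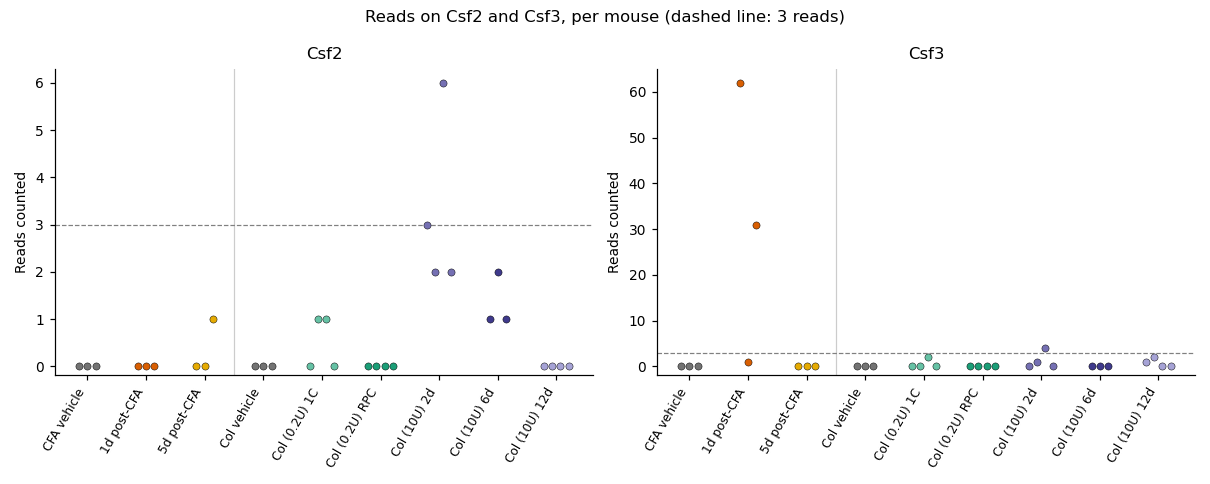
Reads counted on Csf2 and Csf3 (vertical axes, reads per library) for each mouse (points) in the 9 groups, with CFA groups left of the vertical line and a dashed line at the floor of 3 reads. Csf3 reaches 62 and 31 reads at 1d post-CFA, and Csf2 reaches at most 6 reads, at 2d post-Col (10U).

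Csf1r, the receptor of Csf1 and Il34, rose at 6d post-Col (10U). Its level was 110, 179 and 101 CPM in the 3 mice, against 55.4, 21.4 and 47.8 CPM in vehicle-treated mice. The groups did not overlap, and the log2 fold change was 1.61 (SE 0.39, adjusted p = 0.0234). The call was lost without mouse 1 at 6d (log2 fold change 1.72, adjusted p = 0.0631) and without mouse 2 (1.34, adjusted p = 0.0881). At 2d, when Csf1 was highest, Csf1r stood at 43.1, 48.6, 79.4 and 59.6 CPM, which overlapped vehicle (log2 fold change 0.42, SE 0.36, adjusted p = 0.433). Between these times Csf1r rose by a log2 fold change of 1.19 (SE 0.28, adjusted p = 0.0412), a call that 5 of the 7 fits with 1 library left out lost, at adjusted p values of 0.07 to 0.168. In the fit of all 31 libraries it was not called (adjusted p = 0.0632), and Csf1 was (-1.26, adjusted p = 0.00702).

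At 12d Csf1r was 22.9, 21.0, 28.3 and 94.0 CPM. Mice 1 to 3 lay at the lower end of vehicle and mouse 4 beyond its upper end, so the log2 fold change against vehicle of 0.03 became -0.79 without mouse 4. From 6d to 12d Csf1r had a log2 fold change of -1.63 (adjusted p = 0.057), and of -2.43 without mouse 4 (adjusted p = 3.68e-04). After CFA Csf1r was 54.4, 35.3 and 35.6 CPM at 1d and 48.3, 33.9 and 55.5 CPM at 5d, against 15.1, 38.4 and 45.1 CPM in vehicle-treated mice, so both times overlapped vehicle. In the Col (0.2U) groups it ranged from 39.5 to 54.5 CPM (1C) and from 31.1 to 62.3 CPM (RPC), again overlapping vehicle. Among the 9 ordered group means only 6d (130 ± 43.0 CPM, SD, n = 3) and 2d post-Col (10U) (57.7 ± 16.04 CPM, n = 4) were neighbours apart by more than the larger SD.

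Csf2ra, the alpha chain of the GM-CSF receptor, was above every vehicle-treated mouse at both 2d and 6d post-Col (10U). It was 22.7, 19.6, 28.1 and 11.2 CPM at 2d and 21.3, 22.7 and 11.1 CPM at 6d, against 3.05, 2.66 and 10.9 CPM in vehicle-treated mice. The highest vehicle value, that of mouse 3, nearly met the lowest at both times, and the lowest at 2d was that of mouse 4. The log2 fold change was 1.82 (SE 0.57, adjusted p = 0.0818) at 2d and 1.68 (SE 0.57, adjusted p = 0.0632) at 6d. Without mouse 4 it was 2.01 (adjusted p = 0.0298) at 2d, and without vehicle mouse 3 it was 2.76 (adjusted p = 0.0433) at 2d and 2.64 (adjusted p = 0.00582) at 6d. With other libraries left out, 1 at a time, the adjusted p reached 0.249 at 2d and 0.181 at 6d. At 12d Csf2ra was 6.45, 4.10, 4.202 and 14.7 CPM, overlapping vehicle with mouse 4 highest.

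After CFA Csf2ra was 9.08, 2.53 and 9.02 CPM at 1d and 7.07, 3.39 and 8.41 CPM at 5d, against 1.29, 2.87 and 5.23 CPM in vehicle-treated mice. Both groups overlapped vehicle, at log2 fold changes of 1.11 and 1.04, and the second was 1.68 (adjusted p = 0.0433) without vehicle mouse 3. In the Col (0.2U) groups Csf2ra ranged from 4.28 to 11.8 CPM (1C) and from 4.05 to 6.72 CPM (RPC), overlapping vehicle. Without vehicle mouse 3 the log2 fold change moved from 0.67 to 1.64 in 1C (adjusted p = 0.174) and from -0.08 to 0.93 in RPC (adjusted p = 0.12). Of neighbours in the order of its group means, 6d post-Col (10U) (18.4 ± 6.33 CPM, SD, n = 3) and 1C (8.82 ± 3.32 CPM, n = 4) were apart by more than the larger SD, as were RPC (5.29 ± 1.15 CPM, n = 4) and the CFA vehicle group (3.13 ± 1.98 CPM, n = 3).

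Csf2rb, the shared beta chain, was high in the same mice after CFA as Csf3. At 1d post-CFA it was 33.8, 11.2 and 34.2 CPM, against 6.54, 9.03 and 9.97 CPM in vehicle-treated mice, so the groups did not overlap and mouse 2 lay closest to vehicle. The log2 fold change was 1.62 (SE 0.43, adjusted p = 0.924), and 1.99 without mouse 2 (adjusted p = 0.0598). At 5d post-CFA it was 12.4, 9.91 and 19.8 CPM, with a log2 fold change of 0.77. At 6d post-Col (10U) Csf2rb was 19.5, 30.1 and 17.0 CPM, against 6.71, 4.72 and 14.3 CPM in vehicle-treated mice, without overlap (log2 fold change 1.32, SE 0.43, adjusted p = 0.0544). Without vehicle mouse 3 that change was 1.91, with an adjusted p of 0.00806, and with another library left out the adjusted p reached 0.185.

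At 2d post-Col (10U) Csf2rb was 16.4, 26.5, 40.5 and 8.94 CPM, and mouse 4 overlapped vehicle (log2 fold change 1.37, SE 0.58, adjusted p = 0.142). Without mouse 4 the change was 1.64 (adjusted p = 0.04), and with another library left out the adjusted p reached 0.349. At 12d it was 4.43, 4.65, 7.92 and 14.1 CPM, overlapping vehicle. From 6d to 12d Csf2rb fell, with a log2 fold change of -1.49 (SE 0.41, adjusted p = 0.0369). Leaving out any 1 of the 7 libraries other than mouse 4 at 12d ended that call, at adjusted p values of 0.0634 to 0.148. In the Col (0.2U) groups Csf2rb was 10.1, 10.6, 22.8 and 9.78 CPM (1C) and 5.42 to 8.33 CPM (RPC), overlapping vehicle. With all libraries and then without vehicle mouse 3, the change went from 0.64 to 1.23 in 1C (adjusted p = 0.188) and from -0.31 to 0.33 in RPC (adjusted p = 0.483), on the log2 scale. Only 6d post-Col (10U) (22.2 ± 6.93 CPM, SD, n = 3) and 5d post-CFA (14.1 ± 5.16 CPM, n = 3) were neighbours in its order apart by more than the larger SD. Of the 50-base windows of Csf2rb, 17.5% also occur in transcripts of other genes, among them its near copy Csf2rb2. Reads that map to several places were not counted, so reads from such windows are left out of its counts. The counts of Csf2rb were 0.697 to 2.54 times those of Csf2rb2.

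The relation of the beta to the alpha chain was also followed within each library. The ratio of Csf2rb to Csf2ra in RPKM was 1.36 to 1.61 in the 3 mice at 1d post-CFA and 0.264 to 0.527 in the 4 mice at 2d post-Col (10U). These ranges did not overlap each other, but each overlapped that of its own vehicle group, 0.696 to 1.85 in the CFA and 0.479 to 0.803 in the Col experiment. The test of the difference in change between the experiments called neither gene.

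Csf3r, the receptor of Csf3, had the widest spread relative to its mean (SD over mean) of the 4 receptors in both vehicle groups, 150% in the CFA and 131% in the Col experiment. It was 26.6, 25.6, 41.2 and 3.30 CPM at 2d post-Col (10U), against 3.66, 0.266 and 19.0 CPM in vehicle-treated mice. Mouse 4 at 2d and mouse 3 of the vehicle group made the ranges overlap, and the log2 fold change was 1.58 (SE 1.16, adjusted p = 0.364). With both left out, a choice made after seeing the data, it was 3.82 (adjusted p = 0.0189). At 6d Csf3r was 7.95, 10.99 and 6.10 CPM and at 12d 1.68, 0.673, 0.539 and 6.16 CPM, with log2 fold changes of 0.06 and -1.75 against vehicle. Without vehicle mouse 3 these became 1.99 (adjusted p = 0.106) and 0.26.

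At 1d post-CFA Csf3r was 14.7, 2.98 and 13.0 CPM and at 5d 3.19, 1.88 and 4.81 CPM, against 0.242, 0.684 and 9.24 CPM in vehicle-treated mice, of which mouse 3 was the highest. With the replicate number as a block the log2 fold change at 1d was 2.48 (adjusted p = 0.665). Without the block it was 1.54 at 1d and -0.04 at 5d, and without vehicle mouse 3 it was 4.50 (adjusted p = 0.349) and 2.91 (adjusted p = 0.00929). The 1C mice ranged from 3.67 to 14.1 CPM and the RPC mice from 2.00 to 4.89 CPM, within a vehicle range whose upper end is mouse 3. Every 1C mouse lay above the other 2 vehicle-treated mice, but the lowest, at 3.67 CPM, all but met vehicle mouse 1 at 3.66 CPM. Without vehicle mouse 3 the log2 fold change moved from 0.02 to 1.97 in 1C (adjusted p = 0.271) and from -0.98 to 1.02 in RPC (adjusted p = 0.504). No neighbours in the order of its 9 group means were apart by more than the larger SD.

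**Figure D3:**
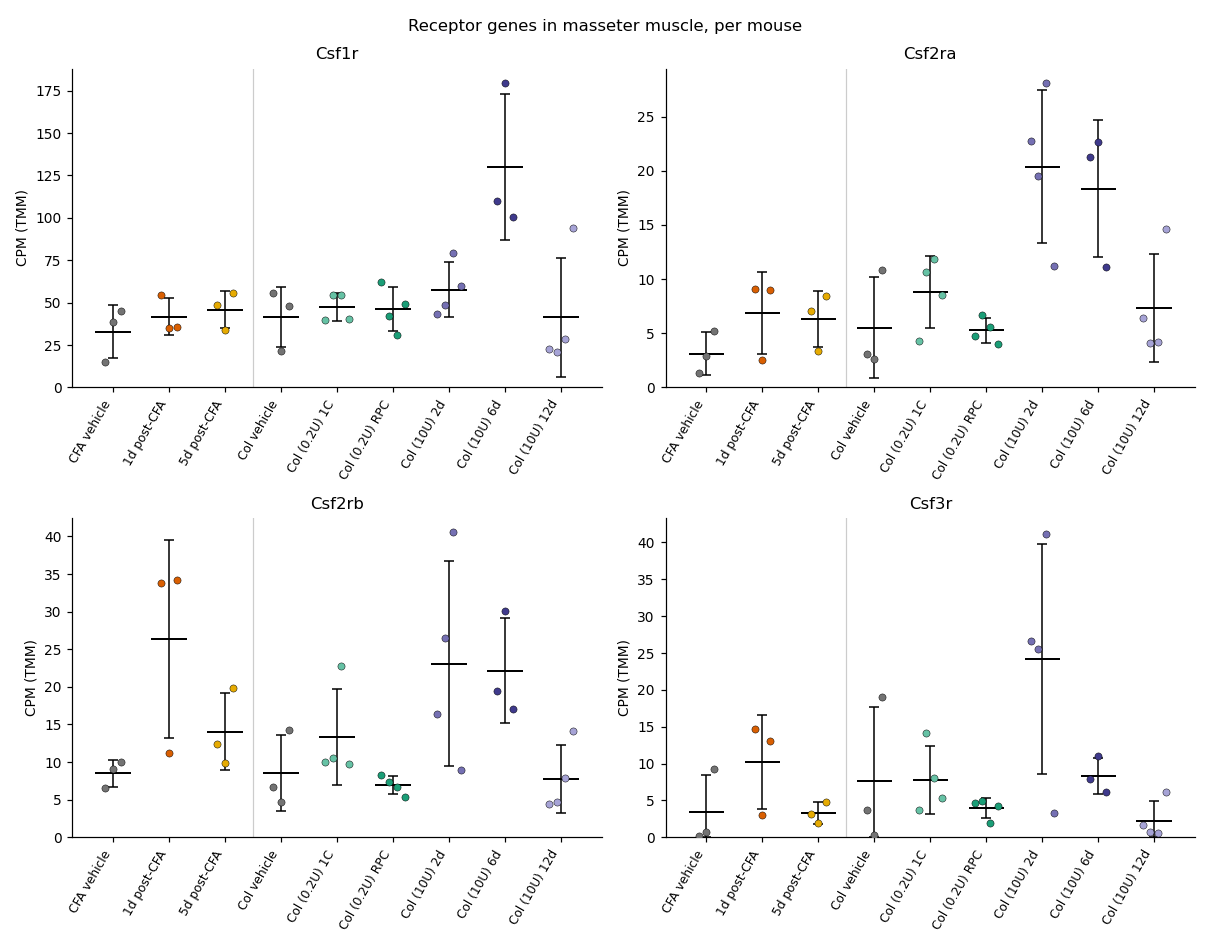
Levels of Csf1r, Csf2ra, Csf2rb and Csf3r in CPM (vertical axes, linear) for each mouse (points) in the 9 groups, with CFA groups left of the vertical line, the group mean (horizontal bar) and SD (error bar, cut at 0). Csf1r lies between 101 and 179 CPM at 6d post-Col (10U), above all vehicle-treated mice, while vehicle mouse 3 reaches 9.24 and 19.0 CPM for Csf3r.

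Of the 8 genes, 6 passed the filter of at least 10 counts in at least 3 libraries in every comparison, all but Csf2 and Csf3. At 6d post-Col (10U) 1 of the 6 was called higher (Csf1r) and none lower, against 14% of 14281 genes called higher and 13.3% called lower, and 5 of the 6 did not overlap vehicle, against 47.2% of all genes. Without vehicle mouse 3 the calls were 4, with Csf1r, Csf2ra and Csf2rb higher and Il34 lower, in a fit that called 21.5% of all genes higher and 20% lower. At 2d no member was called, while 1.14% of 14373 genes were called higher and 1.08% lower. DESeq2 called 3 (Csf1, Il34 and Csf2ra), beside 11.7% of all genes called higher and 11.4% lower. In edgeR 4 of the 6 were among 4781 genes with an unadjusted p under 0.05. There 3 of the 6 did not overlap vehicle, against 24.2% of all genes. Without mouse 4 at 2d 4 were called: Csf1, Csf2ra and Csf2rb higher and Il34 lower, in a fit that called 17.9% of all genes higher and 18.4% lower. At 12d none was called by edgeR or DESeq2 and none had an unadjusted p under 0.05, against 0.762% called higher, 0.466% called lower and 17% without overlap among all genes, and all 6 overlapped vehicle.

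At 1d post-CFA no gene was called by edgeR (0% higher and 0% lower), though 588 genes, Csf1 and Csf2rb among them, had an unadjusted p under 0.05, and DESeq2 called 46 genes higher and 10 lower, none of them a member. There 2 of 6 members did not overlap vehicle, against 6.18% of all genes. At 5d post-CFA 1.06% of genes were called higher and 0.0428% lower, with no member among them by edgeR or DESeq2. Csf2rb was 1 of 1964 genes with an unadjusted p under 0.05 there, and all 6 members overlapped vehicle, against 19.7% of genes that did not. Without vehicle mouse 3, edgeR called Csf2ra and Csf3r higher at 5d, together with 11.8% of all genes higher and 3.84% lower.

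In the Col (0.2U) groups edgeR called no gene (0% in both directions). An unadjusted p under 0.05 was found for 1819 genes in 1C and 1923 in RPC, none of them a member, and DESeq2 called 360 and 189 genes higher and 159 and 254 lower, also without a member. All 6 members overlapped vehicle, against 10.3% (1C) and 12% (RPC) of genes that did not.

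Between times after Col (10U), which share the mice of the comparisons above, Csf1r was the only one of 6 members called from 2d to 6d, against 4.68% of genes called higher and 4.05% lower. Csf1 had a log2 fold change of -1.26 (SE 0.38, adjusted p = 0.0776) and Csf3r of -1.51 (adjusted p = 0.21) in that interval. Without mouse 4 at 2d both passed (Csf1 -1.53, adjusted p = 4.52e-04, and Csf3r -1.88, adjusted p = 0.00257), together with Il34 (1.16, adjusted p = 0.0183) and Csf1r, in a fit that called 14% of all genes higher and 14.8% lower. With another library left out the adjusted p reached 0.252 for Csf1, 0.443 for Csf3r and 0.739 for Il34. From 6d to 12d only Csf2rb was called, against 13% of genes called lower and 13.4% higher, and without mouse 4 at 12d 5 members were called lower (Csf1, Csf1r, Csf2ra, Csf2rb and Csf3r), as were 29.1% of all genes. The tests of whether changes differed between experiments called no member by edgeR, against 0.0946% of genes for 1d post-CFA with 2d post-Col (10U) and 11.3% for 5d post-CFA with 6d post-Col (10U). For the first pair no member had an unadjusted p under 0.05 and DESeq2 called none. For the second Il34 was 1 of 4307 genes with an unadjusted p under 0.05. DESeq2 called Il34 there, beside 8.39% of all genes called higher and 10.2% lower.

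**Figure D4:**
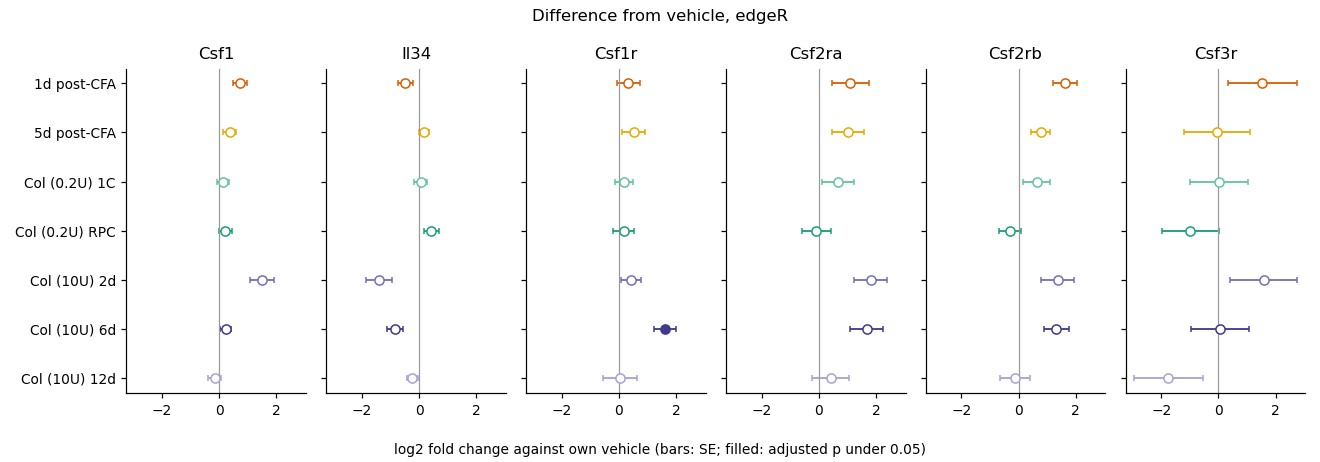
Log2 fold changes (horizontal axis) of the 6 tested members against their own vehicle group in the 7 comparisons, with bars of 1 SE; filled points had an adjusted p under 0.05 in the edgeR quasi-likelihood test. Csf1r at 6d post-Col (10U), at 1.61, is the only call.

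Macrophage markers were highest at the same time as Csf1r. The summed CPM of 12 monocyte and macrophage markers was 1599 to 3240 at 6d post-Col (10U), 643 to 1725 at 2d and 148 to 548 in vehicle-treated mice. Of the 12 markers 10 were called higher at 6d (median log2 fold change 2.78), against 14% of all genes, and none at 2d (median 1.56), against 1.14%. Ly6c2, a marker of inflammatory monocytes, had the only negative log2 fold change of the 12, -2.54 at 6d (adjusted p = 0.129) and -1.40 at 2d (adjusted p = 0.389), and no marker was at 0 in every library. The log2 level of Csf1r minus the mean log2 level of these markers was 0.83 to 2.04 in vehicle-treated mice, -0.08 to 1.02 at 2d and 0.52 to 0.79 at 6d, so that at 6d, relative to these markers, Csf1r lay below every vehicle-treated mouse. How much of the change in Csf1r goes with the number of these cells was not tested.

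Within each vehicle group neutrophil markers, like Csf3r, were highest in mouse 3. The summed CPM of 6 neutrophil markers was 6.39 to 718 in the Col vehicle group and 2.02 to 474 in the CFA vehicle group, 38.7 to 201 at 2d, 49.2 to 335 at 1d post-CFA, 149 to 829 in 1C, 1.39 to 236 in RPC, 8.03 to 85.5 at 12d, 4.86 to 9.96 at 6d and 0.834 to 2.25 at 5d post-CFA. Mouse 2 of 1C, at 829 CPM, had the highest sum of all, while Csf3r was highest in mouse 3 at 2d. In the 2 groups last listed Stfa2l1, a neutrophil marker, was at 0 in every library. Of the bone marrow precursor markers named above all 6 that were tested fell at 6d. Their median was -6.64 on the log2 scale, against a vehicle group that holds mouse 3. Their part in the values of Csf3r was not tested.

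**Figure D5:**
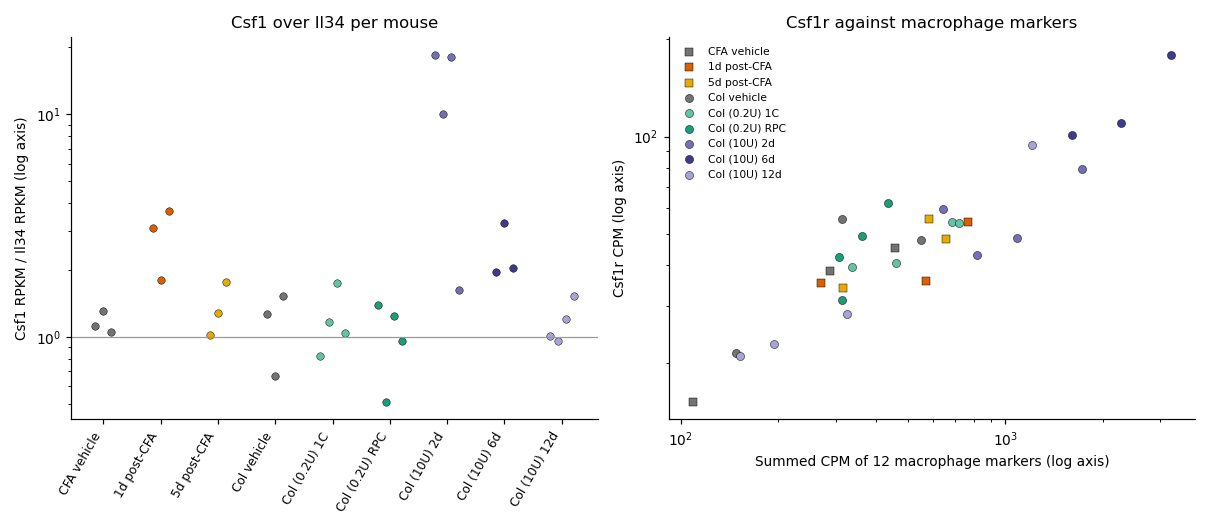
Left, the ratio of Csf1 to Il34 in RPKM (log axis) for each mouse (points) in the 9 groups, with a line at a ratio of 1. Right, Csf1r in CPM against the summed CPM of 12 macrophage markers (both log axes), 1 point per mouse, with squares for the CFA and circles for the Col experiment. The ratio reaches 18.6 at 2d post-Col (10U), and the 3 mice at 6d lie at the upper right, at 1599 to 3240 CPM of markers.

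Of 11 related ligands and receptors, 9 were tested. At 6d post-Col (10U) 4 were called higher and 1 lower, beside 14% and 13.3% of all genes, and the median log2 fold change was 0.18, compared with 0.01 over all genes. Those higher were Il3ra, the alpha chain of the Il3 receptor (1.44, SE 0.31, adjusted p = 0.0172), Csf2rb2, the beta chain specific to Il3 (1.22, SE 0.31, adjusted p = 0.0278), Flt3, a receptor of dendritic cell precursors (2.00, SE 0.60, adjusted p = 0.0433), and the proteoglycan Sdc1, which binds Il34 (1.07, SE 0.23, adjusted p = 0.0167). Ptprz1, a phosphatase that is another receptor of Il34, was lower at 0.652 CPM against 4.65 CPM in vehicle-treated mice (-2.87, SE 0.58, adjusted p = 0.0144). Kitl, the ligand of the related receptor tyrosine kinase Kit, was the only one called at 2d (1.13, SE 0.21, adjusted p = 0.0483) and at 12d (1.31, SE 0.21, adjusted p = 0.0283), and higher both times. Of all genes 1.14% were called higher at 2d and 0.762% at 12d.

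Of 16 genes that act below the receptors, 4 were called higher and 1 lower at 6d (median log2 fold change 0.50), beside 14% and 13.3% of all genes, and none at 2d or 12d. Higher were the adaptor Tyrobp (2.13, SE 0.51, adjusted p = 0.0237), the lipid phosphatase Inpp5d (1.59, SE 0.43, adjusted p = 0.0319) and the feedback inhibitors Socs1 (1.62, SE 0.33, adjusted p = 0.0158) and Socs3 (1.31, SE 0.28, adjusted p = 0.0177). Stat5b, a transcription factor activated by GM-CSF that muscle fibres also express, was lower at 118 CPM against 385 CPM (-1.72, SE 0.29, adjusted p = 0.00853). Muscle markers summed to 34160 to 60960 CPM at 6d against 100900 to 157700 CPM in vehicle-treated mice, and their part in this value was not tested. From 6d to 12d 2 of the 16 were called higher and 6 lower, beside 13.4% and 13% of all genes, with a median of -0.96.

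Of 9 transcription factors of the myeloid lineage, Cebpb, a factor of inflammatory myeloid cells, was the only one called at 2d post-Col (10U), at 231 against 26.5 CPM (3.10, SE 0.36, adjusted p = 0.0184). Of all genes 1.14% were called higher there. Cebpb was also higher at 12d (134 CPM, log2 fold change 2.37, adjusted p = 0.0232), beside 0.762% of all genes, while at 6d it stood at 31.2 CPM. At 6d Irf8 was called higher (1.18, SE 0.32, adjusted p = 0.0323), and Klf4 (-1.08, SE 0.25, adjusted p = 0.02) lower, beside 14% and 13.3% of all genes. No gene of the 3 lists was called after CFA or Col (0.2U).

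The genes whose log2 CPM was most like each member over the 31 libraries were taken from 13949 genes by Pearson r, as a description in which libraries share depth and group. For Csf1 these were Ch25h (0.90), Uck2 (0.88) and Il4ra (0.87), and for Il34 Gstt1 (0.91), Pgcp (0.90) and Klhl33 (0.90). For Csf1r they were the macrophage genes Lyz2, C1qc and Emr1 (0.92 each), and for Csf3r Ncf1 (0.96), Itgam (0.95) and Samsn1 (0.95). For Csf2ra they were Lcp2 (0.94), Aim2 (0.94) and Sfpi1 (0.93), which encodes the myeloid transcription factor PU.1, and for Csf2rb Lrrc33 (0.92), Slc15a3 (0.91) and Hcls1 (0.91). Csf2ra and Csf3r had an r of 0.81 with each other, and of 0.85 within groups.

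The promoters of Csf2ra and Csf3r are printed because both receptors moved together across libraries. They are RefSeq sequences of the 250 bases before each start (GRCm38.p6, chr19:61228419-61228668 on the minus strand and chr4:126024409-126024658 on the plus strand). Capitals mark GAGGAA, a core of the site bound by PU.1, searched on both strands and held by 23.3% of the 32851 promoters. Csf2ra holds it at 14 and 8 bases and Csf3r at 86 bases before the start, and the Csf2 promoter of the same length holds none.
Csf2ra: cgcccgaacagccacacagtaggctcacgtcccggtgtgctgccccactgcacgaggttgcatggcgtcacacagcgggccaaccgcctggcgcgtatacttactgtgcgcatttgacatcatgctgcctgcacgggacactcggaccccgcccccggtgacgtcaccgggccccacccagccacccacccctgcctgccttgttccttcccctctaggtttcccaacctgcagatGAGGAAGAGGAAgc
Csf3r: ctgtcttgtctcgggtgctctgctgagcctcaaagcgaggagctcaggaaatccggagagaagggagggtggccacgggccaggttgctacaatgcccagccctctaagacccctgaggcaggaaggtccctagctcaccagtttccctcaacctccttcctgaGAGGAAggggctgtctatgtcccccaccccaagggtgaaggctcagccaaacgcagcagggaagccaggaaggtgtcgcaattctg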

How the data were processed

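MM was dissected with tendons largely left out, and its poly(A) RNA was made into 1 stranded library for each mouse and read from 1 end over 50 bases. The authors deposited raw counts per gene symbol, 1 table per library, not normalized. The submitters' processing notes name bcl2fastq, TopHat2, HTSeq and mm9, and the versions and the strand setting of the counting are not given in the sources used here. Reads that map to several places were not counted, so genes with near copies are undercounted. Replicates are separate mice, and groups come from the labels. No 2 of the 465 pairs of libraries held identical values.

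Tests used edgeR 4.0.16 in R 4.3.3 (TMM, quasi-likelihood test, group as the only factor). A gene entered a comparison if 3 or more of its libraries held 10 or more reads of it. P-values were adjusted by Benjamini-Hochberg over all genes tested, and a gene was called at an adjusted p under 0.05. The SE was obtained from the size of the log2 fold change and the F statistic, as |log2 fold change|/√F. CPM used TMM, and RPKM the exonic length in GENCODE vM1. Each group was set against its own vehicle group, 6d against 2d and 12d against 6d of Col (10U), and differences in change between experiments were tested as interactions. Scripts were tested on simulated data. Alternatives were DESeq2 1.42.0, its size factors in edgeR, no filter, the criteria of the study (adjusted p under 0.05, fold over 2, RPKM over 1), 1 fit of all 31 libraries, a replicate block, both vehicle groups pooled and each library left out. Replicate numbers mark different mice. Deviations of samples with the same number correlated at over 0.1 in every pair only for 1d post-CFA (r 0.16 to 0.59), where the block called no member. There mouse 2 and vehicle mouse 1, with different numbers, had an r of 0.27, so the check does not show that equal numbers mark pairs.

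The members were given by name, and they and the gene lists were chosen with earlier results of these data known. Every member is named. Of each list, genes called after Col (10U) are named, picked after their values were seen, and 1 listed gene is not reported here. The 3 genes most alike by Pearson r are named for each member. Promoters of 4 of the 8 members (Csf1, Csf2, Csf2ra and Csf3r) were matched by symbol in the RefSeq table. Ly6g, listed as a neutrophil marker, was not analysed here.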

Additional observations from a re-analysis of the deposited data

Results flagged for a closer look

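In 2 of 24 tests of a member in a group of 4 mice, 1 mouse lay far from the other 3 by Dixon's ratio, and chance gives such a gap in about 5% of groups. Csf1r at 12d post-Col (10U) was 93.95 CPM in mouse 4 and 21.0, 22.9 and 28.3 CPM in the others, a gap of 0.900 of the whole range. The same mouse had a summed macrophage marker level of 1206 CPM against 152 to 325 in the others. Csf2rb in the Col (0.2U) group 1C was 22.83 CPM in mouse 3 and 9.78, 10.1 and 10.6 CPM in the others, a gap of 0.938 of the range. The causes were not tested.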

How the results depend on the processing

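The number of members called against vehicle at 2d post-Col (10U) was 0 in edgeR, 3 with DESeq2, 4 with the fit of all 31 libraries, the replicate block or 6 pooled vehicle libraries, and 5 with mouse 4 at 2d and vehicle mouse 3 left out, a choice made after seeing the data. Higher and lower, edgeR called 1.14% and 1.08% of all genes, DESeq2 11.7% and 11.4%, and all 31 libraries 18.6% and 15.1%. The block called 16.1% and 15.2%, pooled vehicles 17.7% and 16.7%, and the fit without both mice 22.8% and 23%. At 6d the number of members called was 1 in edgeR, 4 with DESeq2 or 6 pooled vehicle libraries, 3 with all 31 libraries, 2 with DESeq2 size factors or without the filter, and 0 with the block (Csf1r 1.66, adjusted p = 0.0724). Of all genes, edgeR called 14% higher and 13.3% lower there, DESeq2 17.1% and 18.5%, and all 31 libraries 17.1% and 16.6%. Pooled vehicles gave 20.3% and 19.7%, DESeq2 size factors 13.7% and 13.8%, no filter 11.1% and 10.8%, and the block 5.88% and 4.43%. From 2d to 6d 1 member was called, with 2 for DESeq2 and 3 for the block, while with all 31 libraries the 1 call was Csf1 instead of Csf1r. Of all genes DESeq2 called 8.82% higher and 9.83% lower there, the block 7.18% and 8.03%, and all 31 libraries 6.6% and 6.04%. From 6d to 12d 1 member was called, with 5 for DESeq2 and for the block and 2 with all 31 libraries. There DESeq2 called 19.6% of all genes higher and 17.8% lower, the block 24.5% and 24.7%, and all 31 libraries 11.4% and 12.1%. Of the interactions the block called 1 member for 1d post-CFA with 2d post-Col (10U) (Il34 -1.52, adjusted p = 0.0418), and DESeq2 called 1 for 5d post-CFA with 6d post-Col (10U). Of all genes the block called 0.5% higher and 0.595% lower in the former, and DESeq2 8.39% and 10.2% in the latter. The block rests on shared numbers only, and it leaves out mice with number 4 that have no partner. The block turned the sign of Csf3r at 5d post-CFA (1.25), of Csf2ra (0.35) and Csf3r (0.21) in RPC, of Csf1r at 12d (-0.67) and of Csf2rb in the first interaction (0.18). Pooled vehicles turned Csf2ra in RPC (0.28), and DESeq2 Csf3r in the first interaction (-0.00). The cause was not tested.

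Calls over all genes (higher and lower) moved by more than 1.5 times under these settings. At 2d, with 164 and 155 in edgeR, DESeq2 gave 1687 and 1635, all 31 libraries 2679 and 2169, the block 2317 and 2183, pooled vehicles 2596 and 2447, and both mice left out 3163 and 3183. At 6d (1994 and 1906) the block gave 840 and 633, pooled vehicles 2981 and 2894 and the criteria of the study 1159 and 1036. At 12d (108 and 66) DESeq2 gave 519 and 383, all libraries 498 and 257, the block 28 and 15, pooled vehicles 305 and 145 and the study's criteria 66 and 48. From 2d to 6d (679 and 588) DESeq2 gave 1280 and 1427, the block 1042 and 1166 and the study's criteria 422 and 337, and from 6d to 12d (1917 and 1868) the block gave 3509 and 3547 and the study's criteria 659 and 730. At 5d post-CFA (149 and 6) DESeq2 gave 710 and 182, its size factors 57 and 3, all libraries 59 and 8 and pooled vehicles 0. Where edgeR called 0, all libraries gave 5 and 0 at 1d post-CFA and 142 and 5 in 1C, pooled vehicles 238 and 49 in 1C and 9 and 8 in RPC, and the block 1 at 1d post-CFA, 1 in 1C and 10 in RPC. The first interaction (14 in all) gave 60 and 48 with DESeq2, 47 and 51 with all libraries and 74 and 88 with the block, and the second (1684 in all) 1249 and 1515 with DESeq2.

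With 1 library left out at a time, the members called ranged from 0 to 2 at 5d post-CFA, 0 to 4 at 2d and at 6d, 0 to 4 from 2d to 6d, 0 to 5 from 6d to 12d and 0 to 1 in the interaction of 5d with 6d (Il34, without mouse 3 of the Col vehicle group). Calls over all genes then ranged from 0 to 19 at 1d post-CFA, 0 to 2162 at 5d, 0 to 202 in 1C, 0 to 1 in RPC, 12 (without mouse 2 at 2d) to 5143 (without mouse 4) at 2d, 809 (without mouse 2 at 6d) to 5835 (without vehicle mouse 3) at 6d, 41 to 600 at 12d, 126 to 4105 from 2d to 6d, 234 to 7687 from 6d to 12d, 4 to 104 in the first and 563 to 2658 in the second interaction. Log2 fold changes that turned sign ranged, at 1d post-CFA, from -0.01 to 0.67 for Csf1r and, at 5d, from -0.60 to 2.91 for Csf3r. In 1C they ranged from -0.03 to 0.25 (Csf1), -0.09 to 0.23 (Il34), -0.12 to 0.45 (Csf1r) and -0.54 to 1.97 (Csf3r), and in RPC from -0.16 to 0.40 (Csf1r), -0.43 to 0.93 (Csf2ra), -0.61 to 0.33 (Csf2rb) and -1.54 to 1.02 (Csf3r). After Col (10U) they ranged from -0.51 to 1.99 (Csf3r) at 6d, from -0.79 to 0.27 (Csf1r), -0.18 to 1.43 (Csf2ra), -0.60 to 0.51 (Csf2rb) and -3.00 to 0.26 (Csf3r) at 12d, and from -0.34 to 0.14 (Csf2ra) and -0.32 to 0.41 (Csf2rb) between 2d and 6d. In the first interaction they were -0.23 to 0.42 (Csf1r), -0.72 to 0.33 (Csf2rb) and -2.86 to 1.92 (Csf3r), and in the second -0.30 to 0.10 (Csf1), -0.01 to 1.62 (Csf2ra) and -2.85 to 2.06 (Csf3r). Of all such fits 423 kept direction and side of the threshold, 18 gained a call, 13 lost one and 57 turned sign, 1 of which also gained a call (Csf3r at 5d post-CFA without vehicle mouse 3). With 3 or 4 mice a group, and 20 and 104 reads in all for Csf2 and Csf3, small differences are beyond these data.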

Other observations

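Markers of dendritic cells, mast cells and osteoclasts moved unequally after Col (10U). Of 5 dendritic cell markers, all tested at 6d, edgeR called 4 higher than vehicle (Xcr1 2.47, adjusted p = 0.0161; Itgax 3.21, adjusted p = 0.0111; Clec9a 2.79, adjusted p = 0.032; Flt3 2.00, adjusted p = 0.0433), against 14% of all genes called higher. Their summed level was 21.7 to 29.3 CPM at 6d and 7.15 to 10.3 CPM in vehicle-treated mice, and the median log2 fold change was 2.47 against 0.01 over all genes. Zbtb46 had a log2 fold change of 0.22.

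Of 5 mast cell markers 2 were called lower at 6d, the proteases Cpa3 (-1.91, adjusted p = 0.0338) and Mcpt4 (-1.63, adjusted p = 0.0463), against 13.3% of all genes called lower. Set against 2d instead of vehicle, 1 of the 5 was called lower at 6d, beside 4.05% of all genes. It was Kit, the receptor of Kitl, at 30.1 CPM on average at 2d and 7.87 CPM at 6d (log2 fold change -1.91, adjusted p = 0.0258). Against vehicle, 1 of the 5 markers had a positive log2 fold change at 2d (1.43) and 0 at 6d (-1.91 to -0.49), where Kit was not called. Of 7 osteoclast markers, genes of a cell type that needs Csf1, 6 were tested at 6d and 1 was called, the calcitonin receptor Calcr, lower at 0.385 against 1.32 CPM (-1.78, adjusted p = 0.0188). The median of the list was -0.58, and its summed level was 78.5 to 143 CPM at 6d and 30.1 to 249.6 CPM in vehicle-treated mice, so the ranges overlapped.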
